A study of Mus musculus with 9 samples.

Results

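The genes described here are 10 adipogenic regulators and lipid-handling genes out of the 23337 genes in the count table. Pparg, Ebf1 and Zfp423 regulate the formation of adipocytes. Lpl, Cd36, Fabp4 and Fabp5 release, take up and carry fatty acids, Plin2 and Plin1 coat lipid droplets, and Adipoq encodes the adipocyte hormone adiponectin. The genes were listed by symbol, with no threshold on their values. The libraries, 3 in each of 3 groups, were made from RNA of Cebpb-ko MEFs, immortalised embryonic fibroblasts of mice of the C57BL/6 x 129 background that lack functional C/EBPβ. All groups carry the knockout, and they were stably transfected with an empty vector (EV), with rat C/EBPβ-LAP or with rat C/EBPβ-LIP. LAP is the long C/EBPβ isoform with transactivation domains, and LIP is the short isoform from the same mRNA, which keeps the DNA-binding domain. The cells were selected and kept in Zeocin, and the sources name no adipogenic hormone treatment. Nothing says whether the 3 libraries of a group came from separate cultures or clones, so that p-values measure only the spread between these libraries, which may be technical.

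In adipocyte formation, C/EBPβ and C/EBPδ act early and induce Pparg and Cebpa, which then maintain each other and switch on the genes of lipid uptake and storage. Ebf1 and Zfp423 are transcription factors of committed precursors. Lipoprotein lipase, encoded by Lpl, splits triglycerides outside the cell, Cd36 helps the released fatty acids across the membrane, the Fabp proteins carry them in the cytosol, and perilipins cover the droplets in which they are stored as triglyceride. Fibroblasts without induction carry few droplets, and Plin2 and Fabp5 are the broadly expressed relatives of the adipocyte proteins Plin1 and Fabp4.

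The libraries held 24839139 to 33522082 counts, and values are given as counts or as CPM, which are counts scaled by TMM (factors between 0.949 and 1.10) to a common library size. On this scale, the floor of 3 counts stood for 0.0879 to 0.122 CPM. Floors and counting intervals cover only the error of counting, as the reads carry no molecular identifiers and need not be independent molecules. Mouse Cebpb, the targeted gene, had 684 to 1077 counts in the 9 libraries. Which part of the gene is missing and whether reads of the rat plasmid were counted there are not given in the sources used here, so that these counts do not check the labels. All 9 fibroblast markers looked at were counted in every library, whereas 6 of 8 markers of mature adipocytes had at most 3 counts in any library, and these 8 markers summed to at most 1.08 CPM. Summed fibroblast markers, which are mostly collagen and vimentin mRNA, lay between 27214 and 29578 CPM in EV, between 24426 and 32796 CPM in LAP and between 12753 and 21122 CPM in LIP. Mean Vim was 4556 CPM in EV, 4576 CPM in LAP and 4348 CPM in LIP. In the same order, mean S100a4 was 1730, 2761 and 1758 CPM and mean Col1a1 was 8139, 8004 and 4578 CPM. Col1a2, Col3a1, Thy1, Dcn, Pdgfra and Pdgfrb were also lower on average in LIP than in EV and LAP. Epithelial markers, mostly Krt8 and Krt14, summed to 577 to 706 CPM in EV, 485 to 986 CPM in LAP and 587 to 1004 CPM in LIP, and the macrophage, endothelial, muscle and skeletal lists stayed at or below 56.2 CPM in every library.

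Some genes that most cells use were listed at or near 0, which limits what a low value means in this table. Rxrb and Acsl3 had 0 counts in every library, Pnpla2 at most 2, and Tpm1, a major fibroblast transcript, between 9 and 60, whereas Tbp had 1049 to 1838 and Hprt 3879 to 7911. These genes were chosen after their values were seen. RefSeq lists 4, 3, 2 and 10 mRNAs for Rxrb, Acsl3, Pnpla2 and Tpm1, and 1 mRNA each for Tbp and Hprt, in a later release than the authors counted on. Over all protein-coding genes that averaged 1 count or more, the median was 707 counts for the 7156 genes with 1 RefSeq mRNA and 199 counts for the 5627 genes with 2 or more. They were 7156 of 11204 genes with 1 mRNA and 5627 of 7023 genes with 2 or more. Of these, 21.2% and 22.5% averaged under 20 counts, so that the medians differed but the shares between 1 and 20 counts were close. Genes averaging under 1 count, such as Rxrb, Acsl3, Pnpla2, Cd36 and Plin1, were left out of this comparison. The shares therefore cannot show whether values at or near 0 were as common in both sets of genes. Among the 10 genes, Lpl, Fabp4, Plin2 and Adipoq have 1 RefSeq mRNA, Plin1 and Zfp423 have 2, Fabp5 has 3, Pparg has 4, Cd36 has 5 and Ebf1 has 12. How reads shared by several transcripts were counted is not given in the sources used here, and its part in the low values was not tested. The levels of Ebf1, Pparg, Zfp423, Cd36, Plin1 and Fabp5 may therefore be undercounted, a shift between transcripts of such a gene cannot be told apart from a change in its level, and a 0 is given below only as the value listed.

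The genes spanned a wide range of levels. Scaled to the length of the exons in GENCODE vM21 (CPM per kb), Fabp5 was highest, with 151 to 230 CPM per kb in the EV libraries, followed by Plin2 with 42.1 to 46.4 and Lpl with 4.53 to 5.82. Fabp4 with 1.44 to 2.85 CPM per kb and Ebf1 with 1.59 to 1.96 overlapped in EV. Pparg, Adipoq and Zfp423 followed, all at or below 0.135 CPM per kb and overlapping each other, and Cd36 and Plin1 were listed at 0. In LIP, the levels of Lpl, Fabp4 and Ebf1 overlapped, at 0.345 to 3.90, 0.505 to 1.05 and 0.130 to 0.907 CPM per kb. Of the 10 genes, 8 had the 1 count needed to be tested in each comparison, and 5 had a mean of at least 20 counts.

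**Figure D1:**
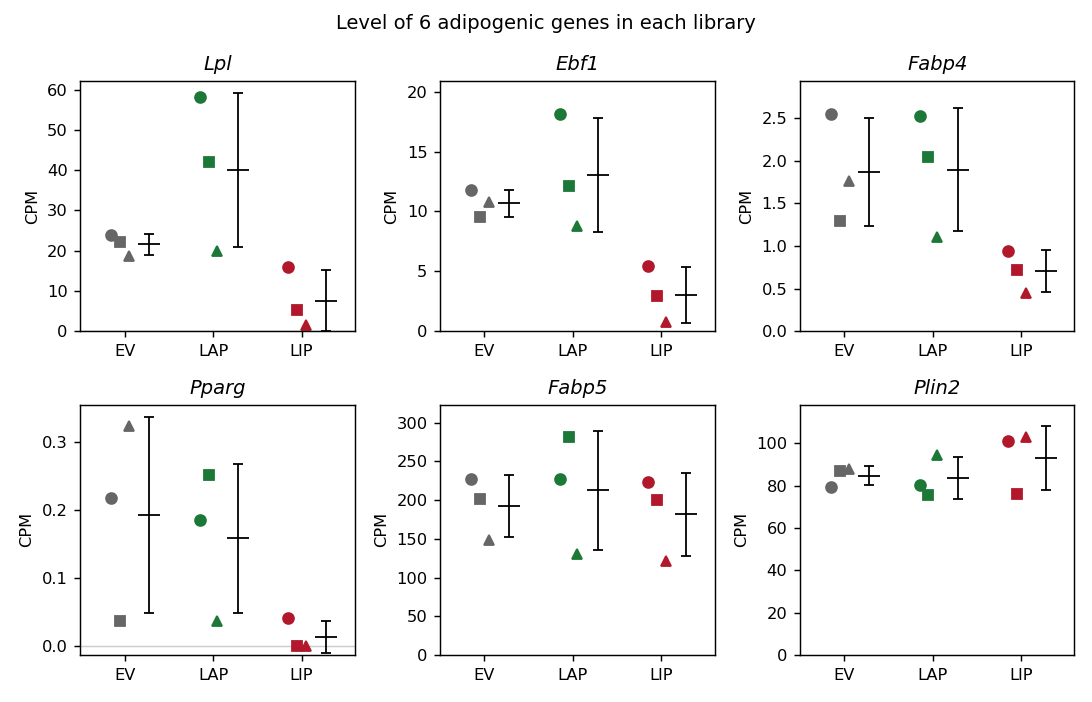
Level in CPM of 6 of the genes in each library of EV, LAP and LIP, on linear axes that differ between panels. Circles, squares and triangles are replicate numbers 1, 2 and 3, and the bars beside them give the mean and SD of 3 libraries. Lpl, Ebf1 and Fabp4 are below every EV and every LAP library in all 3 LIP libraries, whereas Fabp5 and Plin2 overlap between groups, and Pparg rests on 0 to 11 counts per library.

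Ebf1, a transcription factor of B cells and of adipocyte precursors, lies on chromosome 11 from 44618100 to 45008096 of GRCm38.p6. Its counts were 378, 258 and 367 in EV, 589, 338 and 237 in LAP, and 133, 90 and 24 in LIP. These counts corresponded to 10.7 ± 1.12 CPM in EV, 13.0 ± 4.76 CPM in LAP and 3.05 ± 2.33 CPM in LIP (SD, n = 3 each). Every LIP library was thus below every library of the other groups, while EV and LAP overlapped. The LIP library numbered 3 was the lowest and the LIP library numbered 1 the highest of their group. An antisense gene, Gm12158, overlaps Ebf1, and as the library kit does not mark strand, their reads cannot be told apart. In bulk RNA, fewer cells of a type and less RNA per cell cannot be told apart either. The fibroblast marker sum was also lower in LIP, mainly by its collagens, while Vim and S100a4 stayed near their EV means. The part of that sum in the Ebf1 difference was not tested.

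Pparg, the nuclear receptor that drives adipocyte formation, lies on chromosome 6 from 115360879 to 115490404 and overlaps an antisense gene, Gm44079. Pparg had 7, 1 and 11 counts in EV, 6, 7 and 1 in LAP, and 1, 0 and 0 in LIP. Over the group, 1 count in LIP stood against 19 in EV, a ratio of 17.0 with a 95% exact counting interval from 2.70 to 707, and against 14 in LAP, a ratio of 13.0 with an interval from 1.98 to 549. The groups overlapped, since the EV library numbered 2 and the LAP library numbered 3 also had 1 count. These intervals cover neither the spread between libraries nor the counting of shared transcripts described above. Zfp423, a zinc finger protein of precursors on chromosome 8 (start 87661810, end 87962053), had 0, 3 and 7 counts in EV, 2, 2 and 2 in LAP, and 1, 1 and 2 in LIP. Its ratio of EV to LIP, 2.24, had a counting interval from 0.646 to 9.78, so that no difference was detectable at this depth.

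C/EBP proteins bind sites related to the palindrome TTGCGCAA, and TTGCNNAA is a looser form of it whose matches need not be palindromic. The starts of these regulators are shown to let the windows be read beside the counts. RefSeq promoters of GRCm38.p6, 250 bases before to 50 bases after a start, were given for 7 of the 10 genes with 11 starts in all, and those of Lpl, Fabp4 and Fabp5 were not used here. The lines give both Ebf1 starts, the most downstream of the 3 Pparg starts and the Plin2 start, 5′ to 3′ on the strand of the gene, in lower case with TTGCNNAA on either strand in capitals.

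Ebf1 upstream start, chr11:44617850-44618149, plus strand: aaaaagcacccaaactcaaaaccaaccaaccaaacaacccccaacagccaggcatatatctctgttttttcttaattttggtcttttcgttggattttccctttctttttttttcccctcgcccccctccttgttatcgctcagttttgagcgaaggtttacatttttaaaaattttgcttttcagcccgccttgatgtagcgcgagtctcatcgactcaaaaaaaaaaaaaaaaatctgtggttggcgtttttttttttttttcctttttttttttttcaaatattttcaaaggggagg
Ebf1 downstream start, chr11:44619978-44620277, plus strand: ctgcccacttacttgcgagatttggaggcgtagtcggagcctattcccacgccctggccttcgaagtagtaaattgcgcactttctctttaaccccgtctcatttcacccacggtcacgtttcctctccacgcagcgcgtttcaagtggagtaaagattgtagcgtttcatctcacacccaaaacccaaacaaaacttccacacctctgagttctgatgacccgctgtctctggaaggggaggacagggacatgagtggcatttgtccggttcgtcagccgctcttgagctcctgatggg
Pparg downstream start, chr6:115421816-115422115, plus strand: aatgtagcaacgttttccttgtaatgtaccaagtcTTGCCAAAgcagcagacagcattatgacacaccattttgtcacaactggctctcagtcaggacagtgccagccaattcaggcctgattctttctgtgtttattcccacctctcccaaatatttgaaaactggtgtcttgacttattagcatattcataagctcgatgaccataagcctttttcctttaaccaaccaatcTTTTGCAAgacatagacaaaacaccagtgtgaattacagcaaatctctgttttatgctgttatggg
Plin2 start, chr4:86670010-86670309, minus strand: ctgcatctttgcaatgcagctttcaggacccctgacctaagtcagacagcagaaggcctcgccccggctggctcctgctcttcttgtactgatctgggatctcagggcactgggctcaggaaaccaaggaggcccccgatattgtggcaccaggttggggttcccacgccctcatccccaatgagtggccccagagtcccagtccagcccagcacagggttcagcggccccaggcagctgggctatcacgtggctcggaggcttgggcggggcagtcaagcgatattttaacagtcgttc

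Neither Ebf1 window nor the Plin2 window holds TTGCNNAA. The Pparg window holds it from base -215 as TTGCCAAA and from base -16 as TTTTGCAA, the reverse strand, counted from the start with -1 as the base before it. The windows of the other 2 Pparg starts hold no match. Matches were also found at -187 and -58 of Plin1 and at -131 and, after the start, at 22 of the upstream Zfp423 start, so that 3 of the 11 windows held the motif, against 10.8% of all 32851 mouse promoters of this length. The palindrome TTGCGCAA and the DR1 element that PPARγ binds were in none of the 11 windows, and in 0.183% and 0.0396% of all promoters. CCAAT on either strand was in 5 of the 11 windows and in 37.4% of all promoters. A match in a window is a description of its letters and not a bound site.

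Lpl lies on chromosome 8 from 68880555 to 68906932, in 10 exons, and showed the widest difference between LIP and LAP of the genes averaging 20 counts or more. Its counts were 770, 598 and 637 in EV, 1883, 1171 and 540 in LAP, and 393, 160 and 44 in LIP. The mean levels were 21.6 ± 2.68 CPM for EV, 40.0 ± 19.1 CPM for LAP and 7.57 ± 7.58 CPM for LIP (SD, n = 3 each). All LIP libraries lay below all others, although the LIP libraries differed among themselves from 1.42 to 16.0 CPM. LAP libraries numbered 1 and 2 were above all EV libraries, whereas the LAP library numbered 3 lay within the EV range of 18.7 to 24.0 CPM.

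Fabp4, the fatty acid carrier of adipocytes and macrophages, lies on chromosome 3 from 10204342 to 10208616. Its counts were low, namely 82, 35 and 60 in EV, 82, 57 and 30 in LAP, and 23, 22 and 14 in LIP. This gave 1.87 ± 0.637 CPM in EV, 1.90 ± 0.721 CPM in LAP and 0.704 ± 0.244 CPM in LIP (SD, n = 3 each), and again every LIP library was below all 6 others. Summed macrophage markers lay between 7.33 and 11.96 CPM in LIP, between 8.19 and 10.02 CPM in EV and between 10.78 and 12.35 CPM in LAP. The sum in LIP thus overlapped with EV and with LAP, while EV and LAP did not overlap. Within the sum, Cd14, Csf1r and Lyz2 had their lowest mean in LIP, and Cd68 and Mrc1 their highest. Ptprc, the pan-leukocyte marker, was listed at 0 in every library. Fabp5, the epidermal fatty acid carrier, lies 188 kb away on the same chromosome, with start 10012585 and end 10016610. Its counts were 7310, 5458 and 5073 in EV, 7354, 7822 and 3507 in LAP, and 5471, 6108 and 3749 in LIP. Its levels of 192 ± 40.1, 213 ± 76.7 and 182 ± 53.6 CPM (SD, n = 3 each) overlapped between all groups, and the library numbered 3 was the lowest in each of them. A processed pseudogene, Fabp5l2, is annotated elsewhere, and how its reads were separated from those of Fabp5 is not given in the sources used here. Cd36, the fatty acid translocase on chromosome 5 from 17781690 to 17888959, was listed at 0 in all 9 libraries.

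Plin2, the broadly expressed droplet coat protein, lies on chromosome 4 from 86626910 to 86670217 and varied least of the 5 better counted genes. Its counts were 2554, 2351 and 2991 in EV, 2599, 2102 and 2559 in LAP, and 2472, 2315 and 3182 in LIP, or 84.6 ± 4.49, 83.4 ± 9.99 and 93.2 ± 15.04 CPM (SD, n = 3 each), and the groups overlapped. Plin1, the droplet coat of adipocytes on chromosome 7 from 79721164 to 79732904, was listed at 0 in every library. Adipoq, on chromosome 16 from 23146536 to 23157968, had 0 to 2 counts per library, summing to 4 in EV, 4 in LAP and 3 in LIP, and no fold is given for it. With 1 mRNA listed in RefSeq, Adipoq is not among the genes whose reads several listed transcripts share.

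The comparison of LIP with EV asks how the short isoform changed gene expression in cells without C/EBPβ. In LIP, the precursor regulator Ebf1 had a level 3.53-fold lower, Lpl 2.87-fold lower and Fabp4 2.67-fold lower than in EV, with all 3 LIP libraries below all 3 EV libraries, but none of these differences passed the threshold. The log2 fold changes were -1.82 for Ebf1 (SE 0.472, adjusted p = 0.133), -1.42 for Fabp4 (SE 0.384, adjusted p = 0.154) and -1.52 for Lpl (SE 0.562, adjusted p = 0.329) in the quasi-likelihood test of edgeR, adjusted by Benjamini-Hochberg over 18203 genes. Fabp5, at -0.08 (SE 0.230), and Plin2, at 0.14 (SE 0.161), differed by less than their standard error. With this test, 0 of the 8 genes tested had an adjusted p under 0.05, where 0.396% of all genes did. At an unadjusted p under 0.05, 4 of the 8 were lower in LIP, namely Ebf1, Fabp4, Lpl and Pparg, and 0 were higher, where 6.75% of all genes tested were lower. LIP lay below EV without overlap for 3 of the 8 genes and for 8.83% of all genes, and the exact permutation test gives such a gene p = 0.1, the smallest that 3 libraries against 3 allow. By DESeq2, Ebf1 passed the threshold (adjusted p = 0.0180), and it was the only gene of the 8 to do so, where 321 of all 18203 genes did. With the replicate number as a block, Ebf1 and Lpl passed (adjusted p = 0.00641 and 0.0104 by edgeR's quasi-likelihood test), where 467 of all 18203 genes did. The numbers were not taken to pair the libraries of LIP and EV.

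The comparison of LAP with EV asks the same of the long isoform. Lpl was 1.84-fold higher in LAP by the fit, with a log2 fold change of 0.88 (SE 0.282, adjusted p = 0.918 by edgeR's quasi-likelihood test), and the groups overlapped. Lpl was the only gene of the 8 tested with an unadjusted p under 0.05 in this comparison, where 1.93% of all genes were higher at that limit. Ebf1 at 0.28 (SE 0.239), Fabp4 at 0.01 (SE 0.332), Fabp5 at 0.13 (SE 0.242) and Plin2 at -0.03 (SE 0.153) on the log2 scale did not pass it. None of the 8 genes had an adjusted p under 0.05, where 0.0606% of all genes did. With the replicate number as a block, 54 of all 18156 genes (0.297%) passed instead of 11, and Lpl, with an adjusted p of 0.0823, did not. Without the LAP library numbered 3, the log2 fold change of Lpl was 1.20 and passed the threshold (adjusted p = 0.00399 by edgeR's quasi-likelihood test).

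The comparison of LIP with LAP sets the isoforms against each other. Ebf1 fell 4.24-fold and Lpl 5.24-fold from LAP to LIP, at a log2 fold change of -2.09 (SE 0.461, adjusted p = 0.0344) for Ebf1 and of -2.39 (SE 0.535, adjusted p = 0.0372) for Lpl by edgeR's quasi-likelihood test, and every LIP library was below every LAP library. Thus 2 of the 8 genes tested passed the threshold, where 1.05% of all 18166 genes did. Fabp4, 2.67-fold lower in LIP with no overlap, had a log2 fold change of -1.42 (SE 0.420, adjusted p = 0.143), Fabp5 of -0.20 (SE 0.282) and Plin2 of 0.17 (SE 0.216). At an unadjusted p under 0.05, Ebf1, Lpl, Fabp4 and Pparg were lower and 0 of the 8 were higher, against 5.98% of all genes that were lower, and 3 of the 8 lay below LAP in every LIP library, as did 6.90% of all genes. LIP against EV and LIP against LAP share the LIP libraries, so that these values are set side by side and are not independent of each other.

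Libraries of LIP and LAP with the same replicate number deviated together across genes, and with the number as a block, 3 of the 8 genes passed, where 6.51% of all genes did (1183 genes instead of 190). Fabp4 was the gene gained, at a log2 fold change of -1.39 (adjusted p = 0.00259 by edgeR's quasi-likelihood test). The calls of Ebf1 and Lpl without the block depended on single libraries. Without the LAP library numbered 2 their adjusted p were 0.178 and 0.218, and without the LIP library numbered 2 they were 0.0820 and 0.113. By DESeq2, Ebf1 passed (adjusted p = 0.00417) and Lpl did not (adjusted p = 0.286), and neither passed with scaling by total counts or with stricter filters on low counts.

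**Figure D2:**
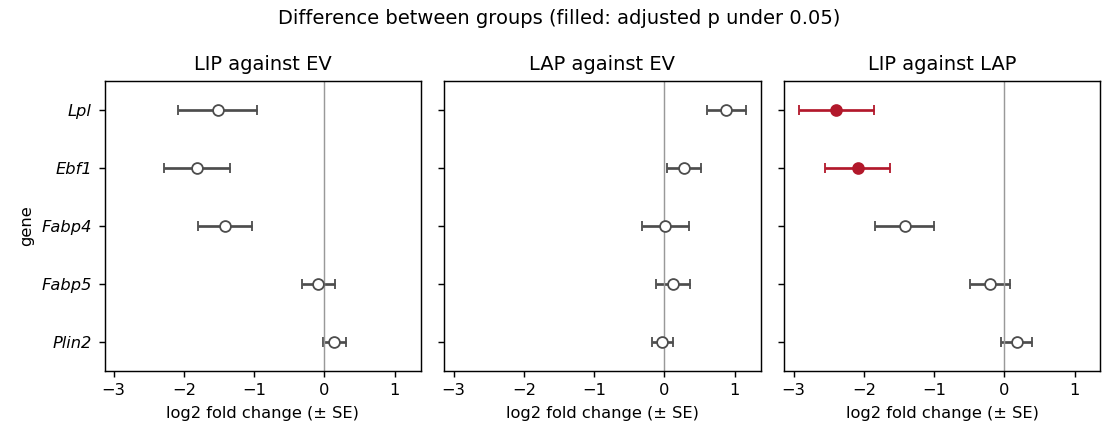
Log2 fold change of the 5 genes that averaged 20 counts or more in each comparison, with horizontal bars of ± 1 SE from the quasi-likelihood fit. Filled points have an adjusted p under 0.05, which only Lpl and Ebf1 in LIP against LAP reached without the block, while Fabp5 and Plin2 lie close to 0 in all 3 panels.

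Within each replicate number, Lpl was 3.62-fold, 8.03-fold and 14.1-fold lower in LIP than in LAP for numbers 1, 2 and 3. Ebf1 was 3.34-fold, 4.12-fold and 11.3-fold lower in the same pairs. Fabp4 was 2.69-fold, 2.84-fold and 2.45-fold lower, so that its ratio varied little although its levels did. Libraries of LIP and EV were not taken as paired, and their ratios by number are given only side by side. Lpl was 1.49-fold, 4.21-fold and 13.1-fold lower in LIP than in EV, and Ebf1 2.17-fold, 3.23-fold and 13.9-fold lower. In LAP against EV, Lpl was 2.42-fold, 1.91-fold and 1.07-fold higher, and Ebf1 was higher for numbers 1 and 2 and lower for number 3.

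**Figure D3:**
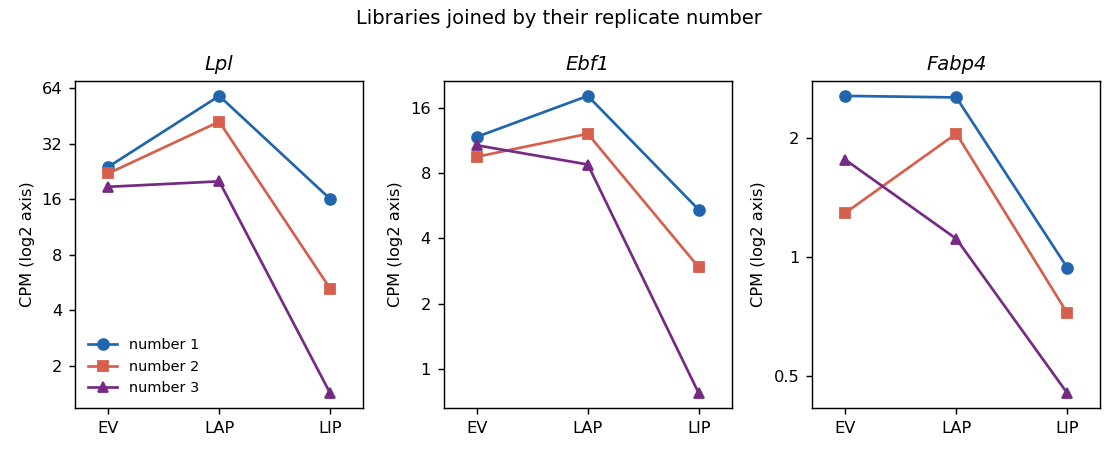
CPM of Lpl, Ebf1 and Fabp4 in EV, LAP and LIP on a log2 axis, with libraries of the same replicate number joined by a line. All 9 lines fall from LAP to LIP, and the lines of Lpl and Ebf1 are farthest apart in LIP, where number 3 is lowest at 1.42 and 0.775 CPM.

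The genes with a pattern nearest to those of Ebf1 and Lpl over the 9 libraries were sought by the mean absolute difference of centred log2 CPM among the 10251 genes that averaged 50 counts or more. For Ebf1, these were Atp8b4 with a difference of 0.129, Pde3a with 0.198 and Ulbp1 with 0.210, where the median gene differed by 1.02. For Lpl, they were the smooth muscle calponin Cnn1 with 0.266, the matrix protein Thbs2 with 0.294 and the GABA receptor subunit Gabra3 with 0.296, against a median of 1.13. Ebf1 itself was the 6th nearest to Lpl, at 0.308. Among these neighbours, Thbs2 and Gabra3 passed the threshold in LIP against LAP, at -2.38 and -2.23 on the log2 scale (adjusted p = 0.0266 and 0.0332 by edgeR's quasi-likelihood test). Of all genes, 1.05% passed. The neighbours were picked by their values in these same libraries, so that their differences follow from the choice and are only described.

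The other genes of adipogenesis and lipid handling were looked at in 7 lists with 167 genes, of which 102 had a mean of at least 20 counts. In LIP against EV, 4 of the 156 tested passed the threshold, where 0.396% of all genes did, and all 4 were lower. In LIP against LAP, 7 of 157 passed, against 1.05% of all genes, and all 7 were lower. With the replicate block, 26 passed in LIP against LAP, against 6.51% of all genes. In LIP against EV, 17 passed with it, where 467 of all 18203 genes did. In LAP against EV, 0 of 156 passed, against 0.0606% of all genes (at an unadjusted p under 0.05, 2 were lower and 3 higher by edgeR's quasi-likelihood test, and 0 past the threshold by DESeq2). The lists were chosen with earlier results of these data known, so that their calls and medians are a description and not a test of the lists. The calls lay mostly in the list of preadipocyte and mesenchymal progenitor genes. Its median log2 fold change, over 16 genes that averaged 20 counts or more, was -1.09 in LIP against EV and -1.14 in LIP against LAP, while the median of all genes was 0.01 and 0.00. The medians of the other 6 lists lay between -0.20 and -0.02 in LIP against EV and between -0.13 and 0.05 in LIP against LAP.

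Of the 20 progenitor genes tested, Ly6a, Wisp2 and Sfrp2 fell in LIP against EV, and these and Sfrp1 and Sfrp4 fell in LIP against LAP. Ly6a encodes the progenitor surface antigen Sca-1 and has close Ly6 paralogs to which some of its reads may also align, the Sfrp genes encode secreted Wnt antagonists, and Wisp2 encodes a matricellular protein. Sfrp2 had 905, 550 and 936 counts in EV, 1429, 856 and 446 in LAP, and 106, 45 and 23 in LIP. Its log2 fold change was -3.56 in LIP against EV (adjusted p = 0.00776) and -3.80 in LIP against LAP (adjusted p = 0.000771 by edgeR's quasi-likelihood test). Wisp2 fell by 3.63 on the log2 scale in LIP against EV (adjusted p = 0.00307 by the same edgeR test), from 1222, 722 and 985 counts to 82, 103 and 27. Ly6a fell by 1.75 (adjusted p = 0.0135 by the same edgeR test), from 1325, 931 and 1237 counts to 392, 303 and 230. Other genes of the list were higher in LIP, although none passed the threshold. Icam1, an adhesion molecule, had 100, 66 and 75 counts in EV and 156, 164 and 238 in LIP, with a log2 fold change of 1.33 (adjusted p = 0.0536 by edgeR's quasi-likelihood test), and Cd24a, a surface antigen, had a log2 fold change of 0.84 (adjusted p = 0.109 by the same test). The fibroblast marker sum was lower in LIP as well, as given above, and its part in these differences was not tested. Pdgfra, Pdgfrb, Thy1 and Dcn are both fibroblast markers and genes of the progenitor list, so that the marker sum and the list median are not separate observations. Their log2 fold changes in LIP against EV were -1.38, -1.74, -1.08 and -1.11, none past the threshold. Agt, the angiotensin precursor, was the 1 called gene of the list of adipocyte secreted genes, with 123, 27 and 14 counts in EV, 75, 17 and 4 in LAP and 2, 3 and 1 in LIP. It passed in both comparisons (adjusted p = 0.0470 and 0.0337 by edgeR's quasi-likelihood test). In the same list, Nrg4, a secreted growth factor, had 20, 7 and 26 counts in EV and 26, 116 and 31 in LIP, with a log2 fold change of 1.82 and an adjusted p of 0.212, and Chst1, a sulfotransferase, had one of -1.01 and an adjusted p of 0.145, both by the same edgeR test.

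Many of the calls of list genes depended on single libraries. In LIP against EV, Sfrp2 and Wisp2 passed whichever library was left out. Ly6a did not pass without EV 2 or LIP 2 (adjusted p = 0.0524 and 0.0560 by edgeR), and Agt did not pass without EV 1, EV 2, LIP 1 or LIP 2 (adjusted p up to 0.152 by edgeR), nor with total counts (0.0793), the size factors of DESeq2 (0.0527) or filterByExpr (0.184). In LIP against LAP, Sfrp2 was the 1 list gene that passed without LAP 2, where the adjusted p by edgeR was 0.0781 for Wisp2, 0.0927 for Ly6a, 0.126 for Sfrp1, 0.129 for Sfrp4 and Ebf2 and 0.130 for Agt. Without LAP 1 and without LIP 2, Sfrp1, Sfrp4, Ebf2 and Agt did not pass either, nor did Sfrp4, Ebf2 and Agt without LIP 1 and Ebf2 without LAP 3. With stricter filters on low counts, 0 of the list genes passed in either comparison.

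Among the 29 other transcription factors that promote adipogenesis, Ebf2, the relative of Ebf1 in brown and beige precursors, fell in LIP against LAP, with a log2 fold change of -1.86 (adjusted p = 0.0386 by edgeR's quasi-likelihood test), a call that 5 of the 6 fits with a library left out lost. It had 31, 25 and 97 counts in EV, 43, 34 and 52 in LAP, and 8, 12 and 15 in LIP, so that every LIP library was again below all others. Cebpd, which acts beside Cebpb early in adipogenesis, had 183 ± 36.1 CPM in EV, 171 ± 21.4 CPM in LAP and 100 ± 43.7 CPM in LIP (SD, n = 3 each) and overlapped between groups, with an adjusted p of 0.214 and 0.286 by edgeR's quasi-likelihood test in LIP against EV and LAP. With the block, it passed in LIP against LAP (log2 fold change -0.84, adjusted p = 0.000390 by the same test). Cebpa, named after its values were seen, had 91 to 204 counts and a log2 fold change of -0.33 in LIP against EV (SE 0.255). None of the inhibitors of adipogenesis that were tested passed edgeR's quasi-likelihood test in any comparison without the block. Of the 25 that averaged 20 counts or more, 18 had a negative log2 fold change in LIP against EV, as did 47.9% of all such genes. Of the promoting factors at that mean, 11 of 15 did so, and of the genes of all lists together, 71 of 102. Ddit3, the stress-induced C/EBP homologue, had 17.6 ± 0.972 CPM in LIP, 23.2 ± 1.82 CPM in EV and 28.4 ± 7.49 CPM in LAP (SD, n = 3 each), and LIP lay below both without overlap (adjusted p = 0.410 and 0.289 by edgeR's quasi-likelihood test). Il6, a cytokine of the same list, had 13.7 ± 6.35 CPM in LIP, 15.8 ± 2.87 CPM in EV and 27.6 ± 5.38 CPM in LAP (SD, n = 3 each), with an adjusted p of 0.180 in LIP against LAP by the same edgeR test. Id2 inhibits helix-loop-helix factors, and its own effect on adipogenesis was not looked at here. Id2 had a mean of 146.9 ± 38.9 CPM in LIP against 98.3 ± 8.45 CPM in EV (SD, n = 3 each) and no overlap, at an adjusted p of 0.257 by edgeR's quasi-likelihood test.

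None of the genes in the lists of droplet proteins and lipolysis, of fatty acid uptake, transport and activation and of triglyceride synthesis passed edgeR's quasi-likelihood test in the 3 comparisons without the block. By DESeq2, Lipg and Cav1 passed in LIP against EV (adjusted p = 0.0208 and 0.0251). Lipg, endothelial lipase and a relative of Lpl, had 5.31 ± 1.78 CPM in EV, 3.94 ± 0.830 CPM in LAP and 1.801 ± 1.10 CPM in LIP (SD, n = 3 each), with an adjusted p of 0.128 in LIP against EV by edgeR's quasi-likelihood test. Angptl4, a secreted inhibitor of lipoprotein lipase, had 26.7 ± 23.4 CPM in LIP and 56.4 ± 23.5 CPM in LAP (SD, n = 3 each), and passed in LIP against LAP only with the block (log2 fold change -1.40, adjusted p = 4.04e-08 by the same test). Dgat2, which makes triglyceride from diacylglycerol, had 3.91 ± 1.89 CPM in LIP against 7.51 ± 1.22 CPM in EV (SD, n = 3 each) and an adjusted p of 0.292 in edgeR's quasi-likelihood test. Cav1, of the caveolae that are dense in adipocytes, had a mean of 16.9 ± 0.674 CPM in LIP against 27.1 ± 4.19 CPM in EV (SD, n = 3 each) and no overlap, at an adjusted p of 0.134 by the same edgeR test. Hsd17b11, a droplet-associated dehydrogenase, had 9.94 ± 2.81 CPM in LIP, 17.3 ± 2.003 CPM in EV and 17.9 ± 2.48 CPM in LAP (SD, n = 3 each), and passed in LIP against LAP with the block (log2 fold change -0.86, adjusted p = 0.00269 by edgeR). The other genes named by the rule were Slc27a4, Agpat9 and Gpd1, with log2 fold changes of -0.36, -1.12 and 0.42 in LIP against EV and adjusted p between 0.325 and 0.706 by edgeR's quasi-likelihood test. G0s2, an inhibitor of lipolysis, chosen here after its values were seen, had 6, 4 and 14 counts in EV, 4, 19 and 2 in LAP and 0 in every LIP library, with an adjusted p of 0.0952 and 0.0705 by edgeR's quasi-likelihood test in LIP against EV and LAP.

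**Figure D4:**
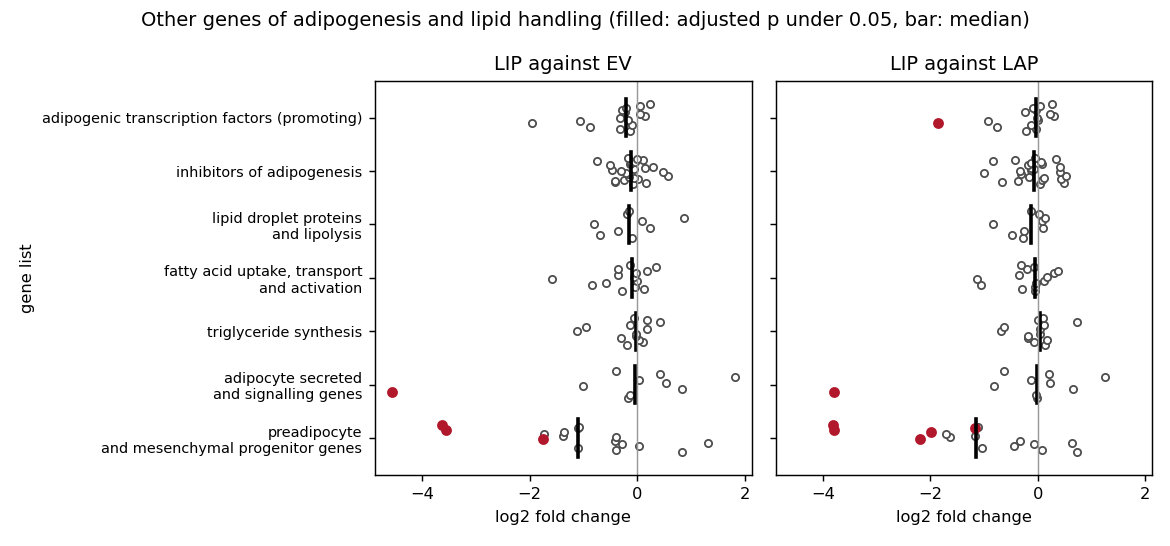
Log2 fold change of LIP against EV and of LIP against LAP for the 102 list genes that averaged 20 counts or more, 1 point per gene, by list. Filled points have an adjusted p under 0.05 and vertical bars are the medians of the lists. The progenitor list, with medians of -1.09 and -1.14, lies left of the other 6, whose medians are close to 0. The lists were chosen with earlier results of these data known.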

How the data were processed

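RNA of 9 libraries, with EV, LAP and LIP numbered 1 to 3 in the labels, was sequenced by the authors from TruSeq RNA libraries. The submitters' processing notes name bcl2fastq 1.8.3, TopHat 1.4.1, HTSeq 0.5.4 and the build mm10. The authors deposited raw counts per gene, with 23337 symbols, 9 columns and 0 columns left unused. The strand setting and the handling of reads with several alignments or transcripts are not given in the sources used here.

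Comparisons were fitted on the 6 libraries concerned, over the genes with at least 1 count there, with TMM normalization and the quasi-likelihood test of edgeR 4.0.16 under R 4.3.3, with Benjamini-Hochberg adjustment and a threshold of 0.05. Standard errors were derived as the ratio of the log2 fold change to the root of F. CPM were scaled over all 9 libraries. Counting intervals are 95% exact intervals of the ratio of 2 counts. Permutation tests were exact and two-sided. The script was tested on simulated data.

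The genes and lists were chosen with earlier results of these data known. Named from the lists were genes past the threshold in any comparison and the 2 genes per list with the smallest p in LIP against EV and in LIP against LAP, with a mean of at least 20 counts. Cebpa, Icam1, Cd24a and G0s2 were named outside this rule, after their values were seen. As alternatives, the test was replaced by DESeq2 1.42.0 or by the exact test of edgeR, the scaling by total counts or by the size factors of DESeq2, and the filter by filterByExpr or by a minimum of 10 counts in each library. The replicate block, a model of all 9 libraries and fits that left out a library in turn were also run. The replicate numbers come from the labels. Deviations from the group means of same-numbered libraries had an r of 0.559, 0.417 and 0.466 in LIP and LAP and of 0.531, 0.209 and 0.513 in LAP and EV, so that these were taken as paired, and of 0.288, -0.132 and 0.223 in LIP and EV, which were not.

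Positions, numbers of mRNAs and promoters come from RefSeq on GRCm38.p6, and exon lengths from GENCODE vM21. No protein sequences were used here.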

Additional observations from a re-analysis of the deposited data

How the results depend on the processing

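In LIP against EV, with 0 of the genes past the threshold, 1 passed by DESeq2 (Ebf1, log2 fold change -1.80) and 0 to 2 passed when each library was left out. Without single libraries, the log2 fold change ranged from -2.51 to -1.35 for Ebf1, from -2.68 to -1.02 for Lpl, from -0.25 to 0.15 for Fabp5 and from -0.50 to 0.13 for Il6. Ebf1 passed without LIP 1 or LIP 3 and Lpl without LIP 1. The replicate numbers did not pair these libraries by the correlation of their deviations, and EV 2 and LIP 2 did not correlate best with each other. With the replicate block, 2 genes passed, Ebf1 at -2.09 and Lpl at -2.04 (adjusted p = 0.00641 and 0.0104 by edgeR). List genes past the threshold, 4 in the main test, were 12 by DESeq2, 9 by the exact test, 17 with the block, 0 with filterByExpr, 0 with at least 10 counts in every library and 2 to 9 without single libraries. Over all genes, calls were 72 in the main test, 321 by DESeq2, 301 by the exact test, 36 with total counts, 4 with filterByExpr, 0 with at least 10 counts, 157 with all 9 libraries, 467 with the block and 22 to 367 without single libraries.

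In LIP against LAP, with 2 of the genes past the threshold, 1 passed by DESeq2 (Lpl did not, at -2.39), 0 with total counts (Lpl -2.34, Ebf1 -2.02), 0 with filterByExpr (-2.40 and -2.09), 0 with at least 10 counts in every library (-2.40 and -2.09) and 0 to 3 without single libraries. Without single libraries, Lpl ranged from -3.57 to -1.89, Ebf1 from -2.79 to -1.62, Fabp4, which passed without LAP 3, from -1.67 to -1.13, and Fabp5 from -0.42 to 0.024. Fabp4 was -1.39 with the replicate block. List genes past the threshold, 7 in the main test, were 26 with the block, 4 with total counts, 0 with either stricter filter and 1 to 13 without single libraries. Over all genes, calls were 190 in the main test, 255 by DESeq2, 113 with total counts and 1183 with the block. They were 2 with filterByExpr, 0 with at least 10 counts and 7 to 448 without single libraries. The stricter filters tested 12419 and 11480 of the 18166 genes, and 5 of the 8 genes described. Their p adjustment therefore ran over fewer genes, and the cause of the lost calls was not tested.

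In LAP against EV, 0 to 1 of the genes passed without single libraries, where Lpl ranged from 0.50 to 1.20 and passed without LAP 3. Signs near 0 turned. Fabp4 was -0.026 with total counts, -0.0082 with the block and -0.26 to 0.29 without single libraries, where Ebf1 was -0.049 to 0.49, Fabp5 -0.11 to 0.38, Plin2 -0.14 to 0.047 and Pparg -0.77 to 0.24. List genes past the threshold were 1 with the replicate block and 0 to 1 without single libraries. Over all 18156 genes, calls were 11 in the main test, 54 with the block and 6 to 62 without single libraries. Ebf1, Lpl and Fabp4 kept their direction in every alternative of LIP against EV and of LIP against LAP. With 24839139 to 33522082 counts per library, Pparg, Zfp423 and Adipoq stayed at counts too low for a change of their levels to be measured with useful precision.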
